A study of Mus musculus with 6 samples.

Results

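The genes described here are 9 members of the PARP family, Parp1, Parp2, Parp3, Parp8, Parp9, Parp10, Parp11, Parp12 and Parp14, together with Dtx3l, the ubiquitin ligase partner of Parp9. They were taken by symbol, and all 10 were found among the 23127 genes of the table. PARP enzymes move ADP-ribose from NAD onto proteins and nucleic acids. Parp1 and Parp2 build chains of it at broken DNA, whereas most other members attach single units, and Parp9 and Parp14 also carry macrodomains, folds that bind ADP-ribose. Work in human cells placed PARP9 and DTX3L in a complex that strengthens interferon responses, and several members are known as interferon-stimulated genes in other tissues.

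RNA was sequenced from mouse small-intestinal stem cells, sorted by a high level of Lgr5-GFP, which marks stem cells of the crypt base. The IFNg group (libraries 6, 2 and 10) came from cells held with 1 ng/ml interferon gamma for 1.5 h in medium with EGF, Noggin and R-spondin1, and the untreated group (libraries 5, 1 and 9) is labelled as without treatment. The titles of all 6 libraries carry 1.5, so untreated cells are listed at the same 1.5 h. Whether untreated cells were held in that medium is not stated. All 6 libraries are labelled as C57BL/6 mice carrying the Lgr5-GFP reporter, and the labels do not say whether each came from a separate animal. Libraries 6 and 5 carry the title tag GFP1 and the other 4 the tag GFP3, and the meaning of the tag is not given.

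The libraries held 28508762 to 40224497 reads in genes, with 19734 to 22371 genes above 0. Values are scaled counts, that is, read counts divided by a size factor for each library, and 1 read was worth 0.853 to 1.05 of them. The 8 stem cell markers, among them Lgr5 and Olfm4, summed to 266707 to 277417 scaled counts in IFNg libraries and to 248142 to 291525 in untreated libraries. Markers of neighbouring crypt cells were present as well: 8 Paneth cell genes summed to 24141 to 201447 in IFNg libraries and to 105296 to 360262 in untreated libraries, with the lowest sum in IFNg 6. All 8 had log2 changes below 0, of which 0 passed in limma, and their part in the results below was not tested. In untreated 9 the Paneth cell sum of 360262 was above the stem cell sum of 285962. The 8 goblet cell genes summed to 86755 to 173795 in IFNg libraries and to 78872 to 277059 in untreated libraries. For 8 enteroendocrine genes these ranges were 5683 to 17008 and 7896 to 19512, and for 8 enterocyte genes 6359 to 9368 and 7676 to 13121. For 8 stroma and endothelium genes they were 125 to 324 and 85.3 to 563. The 8 T and NK cell markers in the table summed to 27.3 to 62.7 in IFNg libraries and 29.3 to 77.2 in untreated libraries. The 6 myeloid and B cell markers in the table summed to 262 to 341 in IFNg libraries and 261 to 318 in untreated libraries. For 8 tuft cell genes these ranges were 2083 to 2969 in IFNg and 1623 to 2623 in untreated libraries. Of the 6 tuft cell genes tested, 0 had a log2 change below 0 and 0 passed in limma. In such bulk samples, fewer cells of a type and less RNA per cell cannot be told apart.

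After 1.5 h of IFNg, 3 of the 10 genes rose, namely Parp14, Dtx3l and Parp9, whose genes lie side by side on chromosome 16. Parp14 rose 12.95-fold, Dtx3l 8.03-fold and Parp9 3.57-fold. No member fell. The test was limma on log2(scaled count + 1) over 16095 genes, with Benjamini-Hochberg adjusted p below 0.05 as the threshold, and it called 0.416% of all tested genes higher and 0.0124% lower. All 10 members passed the filter on low values, a mean of at least 10 scaled counts. Called higher were 2 members in edgeR, 4 in DESeq2, 2 with the library pairs as a block and 4 in the 4 libraries tagged GFP3, against 0.373%, 2.84%, 0.46% and 8.27% of all tested genes. Leaving out IFNg 6, 2 or 10 gave 2 members each, with 0.551%, 0.254% and 0.27% of all genes. Leaving out untreated 5, 1 or 9 gave 4, 2 and 2 members, with 2.27%, 0.308% and 0.293% of all genes. Without libraries 1 and 2 it was 1 member (0.209% of genes), and without 9 and 10 it was 0 (0.203%). The median log2 change was 1.05 over the members and -0.08 over all tested genes.

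Promoter windows of 300 bases from RefSeq (GRCm38.p6) were at hand for 7 of the 10 members, with none for Parp9, Parp10 or Parp14. A pair of them are shown, the window of Dtx3l because this gene rose, and the first window of Parp11 because it alone among the 8 windows held a motif of interferon signalling although the gene did not pass the test. The windows run from 250 bases before to 50 bases after the start site, 5′ to 3′ on the strand of the gene. Dtx3l is at chr16:35938978-35939277 on the minus strand and Parp11 at chr6:127446590-127446889 on the plus strand. Capitals mark matches to the interferon gamma-activated site GAS, searched as TTCNNNGAA, and to the interferon-stimulated response element ISRE, searched as GAAA, any pair of bases and GAAA again, each on both strands.
Dtx3l: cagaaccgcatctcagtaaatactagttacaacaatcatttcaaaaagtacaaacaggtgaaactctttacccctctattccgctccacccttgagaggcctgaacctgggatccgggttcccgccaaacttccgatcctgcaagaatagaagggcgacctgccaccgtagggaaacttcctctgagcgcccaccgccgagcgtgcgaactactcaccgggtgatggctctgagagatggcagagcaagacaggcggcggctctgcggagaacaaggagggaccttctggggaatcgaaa
Parp11: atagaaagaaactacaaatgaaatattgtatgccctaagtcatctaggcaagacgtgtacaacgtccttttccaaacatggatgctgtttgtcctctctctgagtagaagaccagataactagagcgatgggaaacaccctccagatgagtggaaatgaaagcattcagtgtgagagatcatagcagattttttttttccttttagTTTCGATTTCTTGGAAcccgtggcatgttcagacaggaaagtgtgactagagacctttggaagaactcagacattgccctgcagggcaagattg

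The Dtx3l window held neither motif. In Parp11, an ISRE match on the minus strand ran from base -44 to base -35 and a GAS match from base -37 to base -29 of the start site, so these matches overlap. Of all 32851 promoter windows in the table, 8.30% held a GAS match and 3.44% an ISRE match. Such matches describe letters and not binding, and an absent match says only that these letters are not in this window.

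Parp14 encodes a mono-ADP-ribosyltransferase with macrodomains that is known as a partner of STAT6. It lies on mm10 chromosome 16 from 35832874 to 35871544, on the minus strand. Parp14 had 2409, 4798 and 5098 scaled counts in IFNg 6, 2 and 10, against 433, 329 and 187 in untreated 5, 1 and 9. Every IFNg library stood far above every untreated library, with IFNg 6 the lowest of its group and untreated 9 the lowest of the other. Means were 4102 ± 1473 in IFNg libraries and 317 ± 123 in untreated libraries (SD, n = 3 each). The log2 change was 3.70 ± 0.408 SE (limma adjusted p = 0.00377).

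On the log2 scale Parp14 differed by 2.47 between IFNg 6 and untreated 5 and by 4.31 on average among the 4 GFP3 libraries. The tag-by-treatment difference was -1.84 (limma adjusted p = 0.180), with 1 GFP1 library per group. With the library pairs as a block, Parp14 missed the threshold (limma adjusted p = 0.0563), and over all 18 alternatives its adjusted p ran from 7.61e-15 to 0.0948.

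Dtx3l is the Deltex-family ubiquitin ligase that binds Parp9. It lies on chromosome 16 from 35926511 to 35939151, on the minus strand. Dtx3l had 5649, 9568 and 6993 scaled counts in IFNg 6, 2 and 10, against 730, 1328 and 707 in untreated 5, 1 and 9. The groups lay far apart, and library pair by library pair the log2 change was nearly the same: 2.95, 2.85 and 3.31. Means were 7403 ± 1991 in IFNg libraries and 922 ± 352 in untreated libraries. The log2 change was 3.03 ± 0.335 SE (limma adjusted p = 0.00377). The call held in edgeR, in DESeq2, with the block and without any single library, and was lost only without libraries 9 and 10 together (adjusted p = 0.126).

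Parp9, which has macrodomains and works together with Dtx3l, lies on chromosome 16 from 35938470 to 35972605, on the plus strand. Parp9 had 3651, 4510 and 3114 scaled counts in IFNg 6, 2 and 10, against 1437, 912 and 813 in untreated 5, 1 and 9. Every IFNg library was above every untreated library, and untreated 5 was the highest of its group. Means were 3758 ± 704 in IFNg libraries and 1054 ± 335 in untreated libraries. The log2 change was 1.86 ± 0.302 SE, just past the threshold (limma adjusted p = 0.0446). Parp9 missed it in edgeR (0.0660) and without IFNg 6 (0.0659), IFNg 2 (0.272), IFNg 10 (0.122), untreated 1 (0.192) or untreated 9 (0.227). The call held in DESeq2 (4.27e-06), when untreated 5 was left out (0.0118) and with pairs as a block (0.0337). Over all 18 alternatives the adjusted p reached 0.914, always with a positive change.

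**Figure D1:**
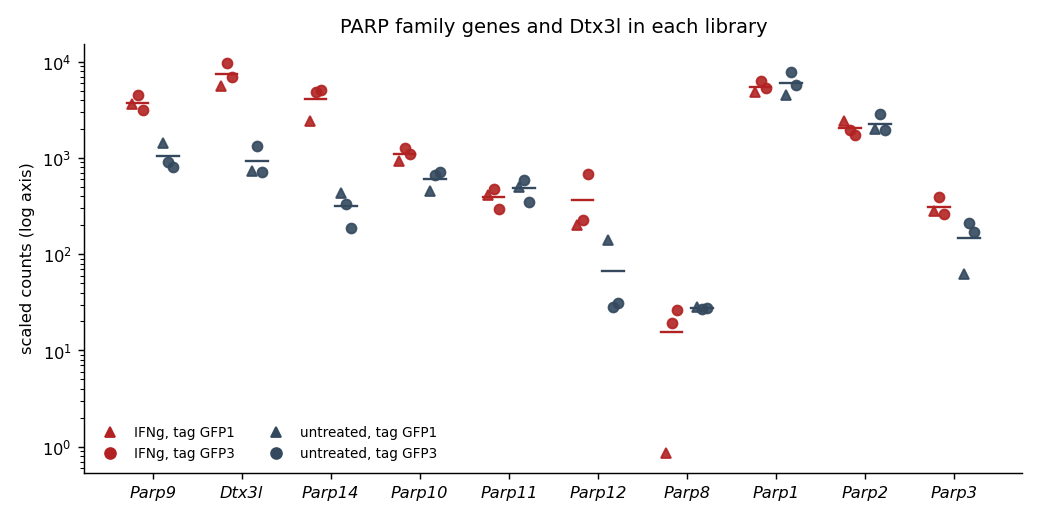
Scaled counts (log axis) of the 10 genes in each library, IFNg in red left of untreated in dark blue, with triangles for the tag GFP1, circles for GFP3 and a bar for each mean of 3 libraries. The groups lie apart for Dtx3l, Parp14 and Parp9 and also for Parp12, Parp10 and Parp3. Those of Parp1 and Parp2 overlap, and Parp8 in IFNg 6 rests on 1 read.

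The annotated 5′ ends of Parp9 and Dtx3l overlap on opposite strands. Their GENCODE start sites are 681 bases apart and the genes share 682 bases, of which 458 are exonic in both. This is 9.40% of the exon length of Parp9 and 8.00% of that of Dtx3l. Since the library kit does not mark strand, reads from this stretch cannot be told apart. Ambiguous reads made up 0.948% to 1.20% of each library, and whether reads from this stretch were counted there was not tested. The values per kb below keep the shared bases in both exon lengths. Parp14 starts 66926 bases away on the other side of Dtx3l. The Dtx3l window printed above is placed on a RefSeq start site that differs from the GENCODE one, and it lies within the Parp9 gene.

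None of the 4 tested neighbours of the locus passed. On the far side of Parp14, Hspbap1 was at 693 ± 93.9 in IFNg libraries and 1038 ± 306 in untreated libraries (log2 -0.55, limma adjusted p = 0.718). Beyond Parp9, the nuclear import gene Kpna1 was at 5504 ± 452 in IFNg and 5450 ± 1837 in untreated libraries (log2 0.07, adjusted p = 0.972, with a sign that turned in edgeR), and Wdr5b at 84.8 ± 16.8 in IFNg and 101 ± 15.1 in untreated libraries (log2 -0.25, adjusted p = 0.919). The antisense transcript Gm15564, which overlaps the 3′ end of Parp9 outside its exons, was at 15.9 ± 9.19 in IFNg and 20.4 ± 4.35 in untreated libraries (log2 -0.45, adjusted p = 0.914). The 95% intervals of these 4 log2 changes ran up to 0.15, 0.73, 0.56 and 0.95, while that of Parp9 began at 1.18. The difference between these genes and the locus was not tested.

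**Figure D2:**
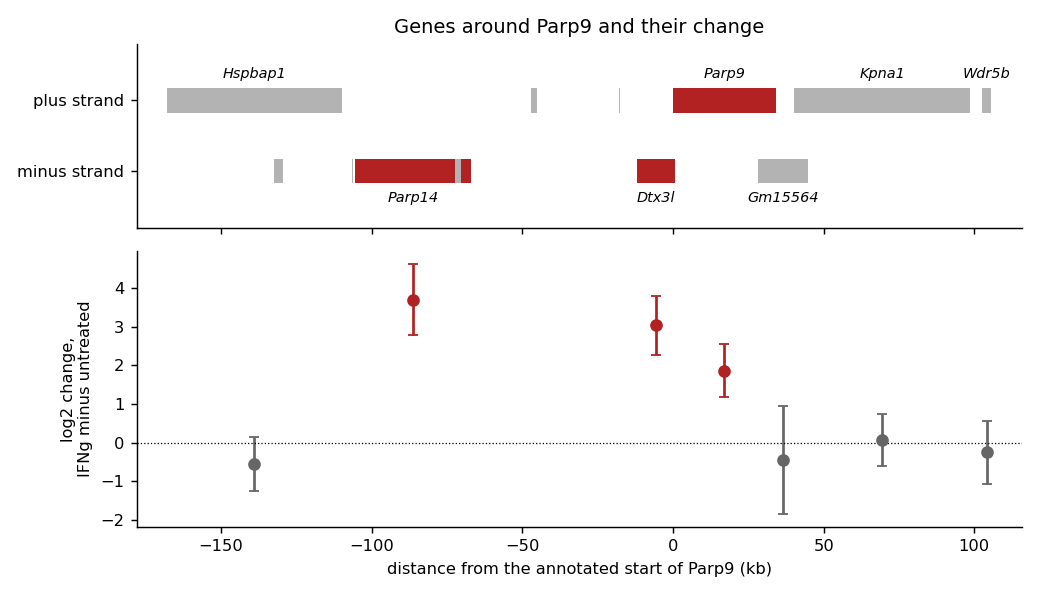
Genes around Parp9, by strand and distance in kb from its annotated start (top), and the limma log2 change of the tested ones with 95% intervals (bottom), at each gene's midpoint. The intervals of Parp14, Dtx3l and Parp9 (red) lie above 1 and those of the 4 tested neighbours (grey) include 0.

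Dtx3l and Parp9 were also set against each other within each library. Per kb of exon, the ratio of Dtx3l to Parp9 was 1.32, 1.81 and 1.91 in IFNg 6, 2 and 10, against 0.432, 1.24 and 0.740 in untreated 5, 1 and 9. All IFNg libraries lay above all untreated libraries, though IFNg 6 and untreated 1 were close. The mean log2 ratio was 0.73 in IFNg libraries and -0.44 in untreated libraries, a difference of 1.17 that was positive in 3 of 3 pairs. A two-sided exact permutation test gave p = 0.1, the smallest that 3 against 3 libraries allow, and 0.12 after Benjamini-Hochberg adjustment over the 6 ratios of members compared. The ratio of Dtx3l to Parp14, at 3.81, 3.24 and 2.23 in IFNg libraries and 2.74, 6.55 and 6.13 in untreated libraries, overlapped between the groups (exact permutation p = 0.3). The ratio of Parp14 to Parp9 was 0.345, 0.557 and 0.857 in IFNg libraries and 0.158, 0.189 and 0.121 in untreated libraries (exact permutation p = 0.1, adjusted 0.12). The ratios of Parp9, Dtx3l and Parp14 to Parp1 gave the same p-values, higher in 3 of 3 pairs. These ratios were chosen after the values were seen.

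Scaled by exon length, the order of the genes differed between the groups. In IFNg libraries Dtx3l led with 1293 ± 348 scaled counts per kb, followed by Parp1 with 1039 ± 141, Parp9 with 771 ± 145, Parp2 with 564 ± 101, Parp14 with 441 ± 158 and Parp10 with 258 ± 38.3. Below them stood Parp12 with 92.0 ± 67.2, Parp3 with 84.6 ± 19.8, Parp11 with 56.0 ± 12.7 and Parp8 with 1.74 ± 1.48. From Dtx3l down to Parp10 each gene's range overlapped that of the next, Parp10 lay clear of Parp12, and Parp12 and Parp3 overlapped.

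In untreated libraries Parp1 led with 1142 ± 323 per kb and Parp2 followed with 625 ± 140, both clear of each other and of Parp9 with 216 ± 68.9. Dtx3l with 161 ± 61.6 overlapped with Parp9, and Parp10 with 142 ± 31.3 overlapped with Dtx3l. Parp11 had 68.6 ± 17.9, Parp3 39.7 ± 20.5, Parp14 34.0 ± 13.2, Parp12 16.5 ± 15.8 and Parp8 3.11 ± 0.101, and from Parp11 to Parp12 neighbours overlapped. Parp14 ranked 5 of 10 in IFNg libraries and 8 of 10 in untreated libraries. In each IFNg library Dtx3l was above Parp1 per kb, with ratios of 1.08, 1.40 and 1.21, against 0.149, 0.156 and 0.114 in untreated 5, 1 and 9.

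**Figure D3:**
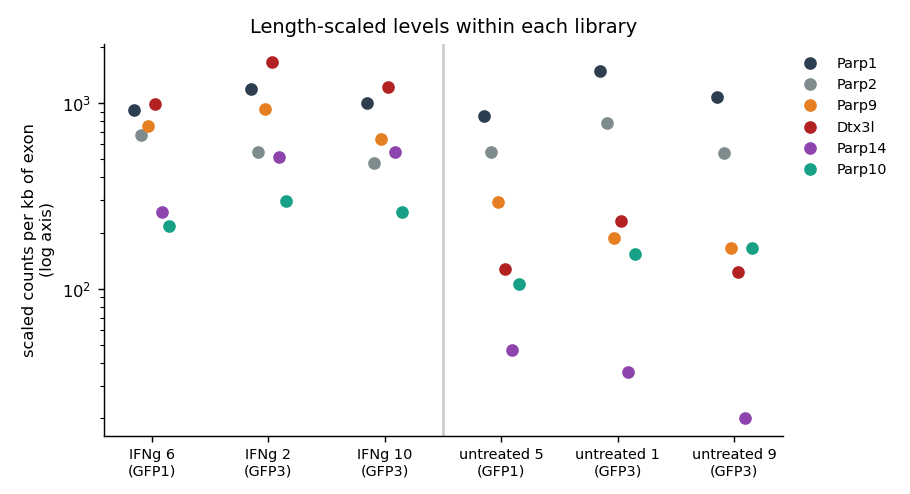
Scaled counts per kb of exon (log axis) of the 6 genes with the highest level in IFNg libraries, in each library, IFNg left of untreated. In IFNg libraries Dtx3l lies above Parp1, and in untreated libraries Parp1 and Parp2 lie above all others shown.

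Among the mono-ADP-ribosyltransferases outside the locus, none passed. Parp10, a ubiquitin-binding member, had 936, 1264 and 1105 scaled counts in IFNg 6, 2 and 10, against 455, 657 and 708 in untreated 5, 1 and 9. The groups did not overlap and the log2 changes of the pairs were 1.04, 0.94 and 0.64, but the overall change of 0.87 ± 0.289 SE missed the threshold (limma adjusted p = 0.345). DESeq2 gave an adjusted p of 0.0685. Exons of Parp10 share 205 bases, 4.80% of its exon length, with Plec on the same strand.

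Parp12 carries CCCH zinc fingers and is known in other cells as an interferon-stimulated gene that restrains viruses. Parp12 had 200, 226 and 677 scaled counts in IFNg 6, 2 and 10, against 139, 28.4 and 30.9 in untreated 5, 1 and 9. The groups did not overlap, with IFNg 10 far above the other IFNg libraries and untreated 5 far above the other untreated ones. The fold of mean values was 5.56, but 12.4 without untreated 5 and 3.22 without IFNg 10. The log2 change of 2.63 ± 0.691 SE did not pass (limma adjusted p = 0.294). It passed in DESeq2 (0.0266), in the GFP3 libraries alone (0.00520) and without untreated 5 (0.0249), while other alternatives gave values as high as 1.00. On the log2 scale IFNg 6 exceeded untreated 5 by 0.52, and the GFP3 libraries gave 3.68 (limma interaction adjusted p = 0.168).

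Parp11, linked in mouse to the shaping of the sperm nucleus, had 409, 473 and 297 scaled counts in IFNg 6, 2 and 10, against 505, 594 and 346 in untreated 5, 1 and 9. The groups overlapped, with a log2 change of -0.28 and a 95% interval of -1.03 to 0.47 (limma adjusted p = 0.903). This is the gene whose window, shown above, holds the overlapping GAS and ISRE matches.

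Parp8, a little-studied member, was near the detection limit. Parp8 had 0.853, 19.3 and 26.3 scaled counts in IFNg 6, 2 and 10, against 28.4, 26.7 and 27.8 in untreated 5, 1 and 9. In reads these were 1, 20 and 30 in IFNg libraries against 27, 31 and 27 in untreated libraries, so a single library, IFNg 6, lay far below the rest. The log2 change was -1.50 ± 0.991 SE (limma adjusted p = 0.823) and -0.28 without IFNg 6.

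The members known from DNA repair did not pass either. Parp1, the main sensor of strand breaks, had 4854, 6315 and 5335 scaled counts in IFNg 6, 2 and 10, against 4519, 7892 and 5727 in untreated 5, 1 and 9. The groups overlapped widely. The log2 change was -0.11 with a 95% interval of -0.74 to 0.53 (limma adjusted p = 0.955), and its sign turned without untreated 1. Parp2, which shares that work, had 2446, 1969 and 1724 in IFNg libraries and 1984, 2854 and 1965 in untreated libraries. For Parp2 the log2 change was -0.14, its 95% limits being -0.76 and 0.48 (adjusted p = 0.939). This sign also turned without untreated 1. Both intervals include changes in either direction.

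Parp3, which acts at double-strand breaks, had 282, 396 and 260 scaled counts in IFNg 6, 2 and 10, against 62.2, 209 and 169 in untreated 5, 1 and 9. The groups did not overlap, and untreated 5 was the lowest library by far. The fold was 2.13, and 1.65 without untreated 5. The log2 change of 1.23 ± 0.477 SE missed the threshold (limma adjusted p = 0.435), and none of the alternatives brought it past.

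Counted together, 6 of the 10 genes had IFNg libraries wholly above untreated libraries and 1, Parp8, wholly below. Over all tested genes these shares were 8.13% and 5.06%. The 6 were Parp14, Dtx3l, Parp12, Parp9, Parp3 and Parp10. For Parp8 the gap was small, with 26.3 scaled counts in IFNg 10 and 26.7 in untreated 1. In reads before scaling its groups overlapped, with 30 in IFNg 10 and 27 in untreated 5 and in untreated 9. In the fit with the tag-by-treatment interaction 0 members passed in limma, as did 0% of all tested genes. Parp8, Parp12, Parp14 and Parp3 had an unadjusted p under 0.05 there, as did 13.2% of all tested genes. With 1 GFP1 library per group, this fit does not show that the changes were alike under both tags. Neither edgeR nor DESeq2 was run on that fit.

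**Figure D4:**
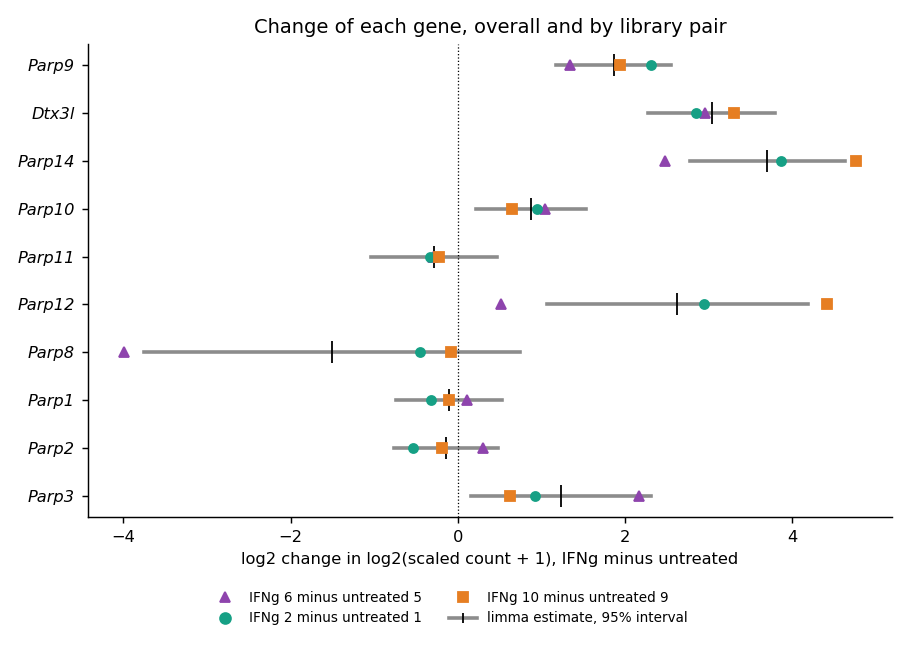
Log2 change, IFNg minus untreated, of each gene: the limma estimate (vertical tick) with its 95% interval (grey bar), and the change in each pair of libraries (triangle 6 and 5, circle 2 and 1, square 10 and 9). The pairs lie close together for Dtx3l, Parp10 and Parp11 and far apart for Parp12, Parp14 and Parp8.

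The remaining PARP enzymes were measured alongside. Of the 7 others in the table (Parp4, Parp6, Parp16, Tiparp, Zc3hav1, Tnks and Tnks2), 0 passed in limma and in edgeR. In DESeq2 2 of the 7 were called higher, as were 2.84% of all tested genes. An unadjusted p under 0.05 in limma was found for 2 of the 7, against 9.22% of all tested genes. The median log2 change of the 7 was 0.52. Tiparp, the mono-ADP-ribosyltransferase induced by the aryl hydrocarbon receptor, was at 3776 ± 1101 in IFNg libraries and 1232 ± 770 in untreated libraries (log2 1.75, limma adjusted p = 0.251). It passed in DESeq2 (0.0278), in the GFP3 libraries alone (0.00275) and without untreated 5 (0.0151). Zc3hav1, the antiviral zinc finger protein that binds viral RNA, was at 3196 ± 247 in IFNg and 1702 ± 392 in untreated libraries (log2 0.93, limma adjusted p = 0.303, but 0.0329 in DESeq2). Parp6 was at 649 ± 52.5 in IFNg and 451 ± 15.6 in untreated libraries (log2 0.52, adjusted p = 0.635), and the tankyrase Tnks2 at 1705 ± 259 in IFNg and 1887 ± 581 in untreated libraries (log2 -0.11, adjusted p = 0.955). For Tiparp, Zc3hav1 and Parp6 all IFNg libraries were above all untreated libraries, as they were for 8.13% of all tested genes.

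None of the other Deltex ligases tested passed. Of 4 listed, Dtx2, Dtx3 and Dtx4 were tested, and 0 passed in limma, edgeR or DESeq2, with 0 at an unadjusted p under 0.05. Dtx4 was at 1459 ± 955 in IFNg libraries, with 2526 in IFNg 10, and at 665 ± 79.3 in untreated libraries (log2 0.93, limma adjusted p = 0.607). Dtx2 was at 578 ± 164 in IFNg and 669 ± 51.8 in untreated libraries (log2 -0.24), and Dtx3 at 173 ± 60.7 in IFNg and 247 ± 64.9 in untreated libraries (log2 -0.55). Differences between these genes and Dtx3l were not tested.

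Genes that remove or read ADP-ribose gave 0 calls among 17 tested of 20 listed in limma, edgeR and DESeq2, and 4 of them had an unadjusted p under 0.05 in limma, against 9.22% of all tested genes. In the GFP3 libraries alone 5 were called higher, as were 8.27% of all genes there. The chain-degrading hydrolase Parg had 2899, 3763 and 3882 scaled counts in IFNg 6, 2 and 10, against 2453, 1314 and 835 in untreated 5, 1 and 9 (log2 1.32, limma adjusted p = 0.306, but 0.0311 without untreated 5). The macrodomain histone gene H2afy was at 6081 ± 1609 in IFNg and 2654 ± 1562 in untreated libraries (log2 1.33, adjusted p = 0.325, but 0.0355 without untreated 5). In both genes untreated 5 stood well above the other untreated libraries. Nudt5 was at 1718 ± 370 in IFNg and 1888 ± 329 in untreated libraries (log2 -0.14) and the ADP-ribose-directed ubiquitin ligase Rnf146 at 1418 ± 280 in IFNg and 1784 ± 353 in untreated libraries (log2 -0.33).

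In the repair genes linked to Parp1, 1 of 14 rose, the uracil glycosylase Ung, against 0.416% of all tested genes in limma. Ung had 350, 454 and 401 scaled counts in IFNg 6, 2 and 10, against 126, 86.9 and 84.5 in untreated 5, 1 and 9, a 4.05-fold rise (log2 2.02 ± 0.324 SE, limma adjusted p = 0.0417). The call was lost with the block (0.0621), and without IFNg 6 (0.0519), IFNg 2 (0.306), IFNg 10 (0.197), untreated 1 (0.181) or untreated 9 (0.205). Its lowest adjusted p in any alternative was 7.65e-08 and its highest 1.00. The scaffold Xrcc1 was at 1810 ± 308 in IFNg and 1985 ± 296 in untreated libraries (log2 -0.14), Polb at 1341 ± 264 in IFNg and 1510 ± 320 in untreated libraries (log2 -0.16), Xrcc5 at 1478 ± 532 in IFNg and 1579 ± 86.9 in untreated libraries (log2 -0.15) and Xrcc6 at 3223 ± 793 in IFNg and 3440 ± 738 in untreated libraries (log2 -0.10). Their signs each turned in at least 1 alternative, and the median log2 change of the list was -0.14.

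Of 12 tested genes (16 listed) that make or use NAD, the substrate of PARP enzymes, 2 rose in limma and 1 in edgeR. Over all tested genes the shares called higher were 0.416% and 0.373%. Nampt, the rate-limiting enzyme of NAD salvage, had 5892, 5438 and 5255 scaled counts in IFNg 6, 2 and 10, against 1966, 1820 and 2361 in untreated 5, 1 and 9. All IFNg libraries were above all untreated libraries, a 2.70-fold rise (log2 1.44 ± 0.239 SE, limma adjusted p = 0.0479). The call was lost in edgeR (0.0876), with TMM scaling (0.0614), without a filter (0.0592), narrowly with a pseudocount of 0.5 (0.05001), and without IFNg 6 (0.0695), IFNg 2 (0.311), IFNg 10 (0.212), untreated 1 (0.182) or untreated 9 (0.154). The highest adjusted p was 0.992, without libraries 1 and 2. Ido1, which opens the breakdown of tryptophan towards NAD, rose 39.4-fold, to 1286 ± 727 in IFNg libraries against 32.7 ± 13.2 in untreated libraries (log2 5.19 ± 0.484 SE, limma adjusted p = 0.00121). Nadk was at 5341 ± 387 in IFNg and 5421 ± 1048 in untreated libraries (log2 -0.01, with a sign that turned in DESeq2), Nadsyn1 at 1477 ± 164 in IFNg and 1733 ± 499 in untreated libraries (log2 -0.19) and the NAD-consuming ectoenzyme Cd38 at 4030 ± 338 in IFNg and 4692 ± 387 in untreated libraries (log2 -0.22).

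Among genes of interferon signalling, Irf1, Irf9 and Stat2 rose in limma, which called 0.416% of all tested genes higher. Irf1, a transcription factor, rose 33.6-fold, to 59642 ± 6397 in IFNg libraries against 1773 ± 89.3 in untreated libraries (limma adjusted p = 2.33e-05). Irf9, the DNA-binding subunit of the ISGF3 complex, rose 4.48-fold, to 4188 ± 119 in IFNg libraries against 935 ± 56.1 in untreated libraries (adjusted p = 0.00321). The Irf9 call was lost without libraries 1 and 2 (0.161) or 9 and 10 (0.186). Its partner Stat2 had 2302, 2548 and 2150 in IFNg 6, 2 and 10, against 123, 533 and 297 in untreated 5, 1 and 9 (limma adjusted p = 0.0333). Stat2 missed the threshold in edgeR (0.0554), with pairs as a block (0.0691) and without IFNg 6 (0.0653), IFNg 2 (0.128), IFNg 10 (0.122) or untreated 9 (0.123). The receptor chain Ifngr1 was at 14458 ± 3048 in IFNg and 24434 ± 9674 in untreated libraries (log2 -0.71, adjusted p = 0.561) and the kinase Jak1 at 14920 ± 3499 in IFNg and 11417 ± 3652 in untreated libraries (log2 0.40, adjusted p = 0.866).

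**Figure D5:**
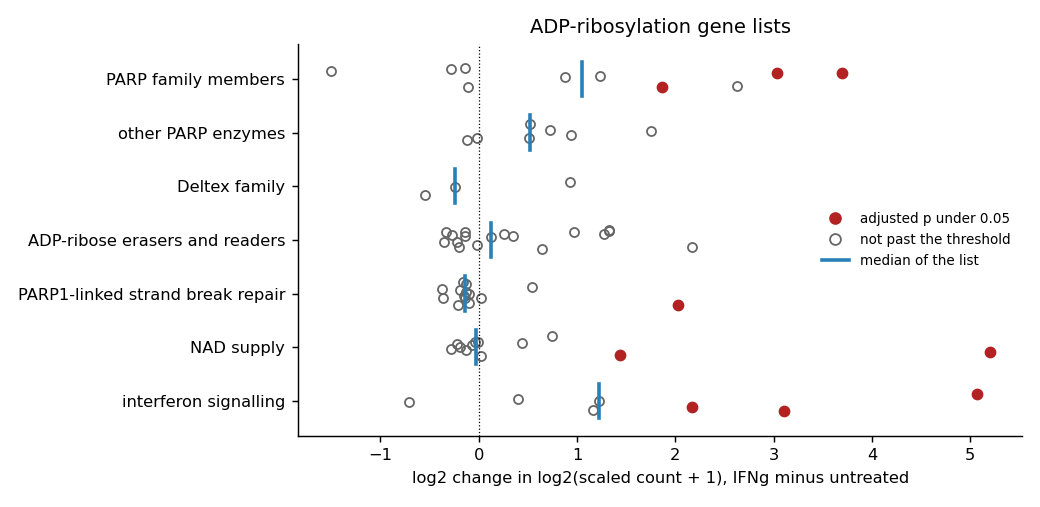
Limma log2 change, IFNg minus untreated, of tested genes in the 10 members and the 6 related gene lists; filled red points passed, open points did not, and blue lines are list medians. Beyond Parp9, Dtx3l and Parp14, the filled points are Ung, Nampt, Ido1, Stat2, Irf9 and Irf1.

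The genes whose profile over the 6 libraries was most like that of each locus gene were ranked by Pearson r of log2(scaled count + 1). All these libraries share the treatment contrast, so the values are a description. For Parp9 the nearest were the interferon receptor chain Ifnar2 (r = 0.996), Fam220a (0.995), the nucleotide kinase Cmpk2 (0.993), the feedback inhibitor Socs3 (0.990) and the GTPase Ifi47 (0.989). For Dtx3l they were Il18bp (0.995), which encodes a decoy for interleukin-18, Gm11775 (0.992), Adam33 (0.991), the GTPase Irgm2 (0.990) and Sectm1b (0.990). For Parp14 they were the kinase Ripk1 (0.996), Rap1gds1 (0.992), Ero1l (0.992), Ap1s2 (0.990) and Socs3 (0.988). Of these genes, Il18bp (limma adjusted p = 0.391), Adam33 (0.0562), Rap1gds1 (0.200) and Ap1s2 (0.457) did not pass. Adam33 averaged 48.8 scaled counts in IFNg libraries and 0.860 in untreated libraries, so it passed the filter on low values only through the IFNg group. Between members, r was 0.927 for Parp9 and Dtx3l, 0.962 for Parp9 and Parp14 and 0.966 for Dtx3l and Parp14, so each locus gene had at least 5 genes elsewhere closer to it than its neighbours.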

How the data were processed

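Each gene's value in the deposited table is a signal, a read count that the authors divided by 1 size factor per library, per the file headers and name, and called a scaled count here. The submitters' processing notes list, without roles, the build mm10 and the tools DESeq 1.22.1, HTSeq 0.5.3, STAR 2.5.0a and cutadapt 1.6. Strand setting and annotation: not given in the sources used here. Per the labels' protocols, 2 ng of RNA went through 12 PCR cycles with SMART-Seq v4 and 8 more with KAPA Hyper, without molecular identifiers. Of 138762 values, 100% came out as whole reads to within 0.01 read when divided by the library's step. The 4 rows that name no gene were left out, among them 18.5% to 25.0% not uniquely aligned.

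Genes with a mean of at least 10 (16095) were tested two-sided with limma 3.58.1 (R 4.3.3), using robust trended variances and Benjamini-Hochberg adjustment. Values entered as log2(scaled count + 1). This scale understates changes of low genes. Folds are ratios of mean scaled counts. As alternatives on recovered reads, edgeR 4.0.16 called 60 genes higher and DESeq2 1.42.0 called 457. The fits were also run on simulated libraries without pair or tag effects, so those runs do not cover such effects. No label names separate animals, so p-values cover the spread among libraries, which may be technical. Coordinates and exon lengths are from GENCODE M21 (GRCm38, that is mm10).

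Pairs join neighbouring end numbers within a tag. The pairing was taken from these numbers and checked in the same data. Deviations from group means correlated at 0.302 (6 and 5), 0.404 (2 and 1) and 0.252 (10 and 9). Between libraries of different pairs they correlated at -0.284 to -0.0308. Because deviations are taken from group means, positive values within pairs make the others negative on balance. The contrast is therefore no independent check of the pairing. Members, lists and tests were chosen with earlier results of these data known. Named genes are the members, list genes that passed plus up to 4 with the highest mean, tested genes among 3 neighbours on each side of the locus, and the 5 most correlated genes. In the interferon signalling list, 1 gene is not reported here and not plotted.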

Additional observations from a re-analysis of the deposited data

How the results depend on the processing

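Of the 10 members, 3 were higher in limma, 2 with the replicate block of pairs and 2 to 4 without any single library. The count was 1 without libraries 1 and 2 and 0 without libraries 9 and 10, which leaves 2 libraries per group. Genes called higher were 67 in limma, against 457 in DESeq2, 1337 in the GFP3 libraries alone and 366 without untreated 5. The block ended the calls of Parp14, Ung and Stat2. The tag-by-treatment fit called 0 members in limma and under 5 alternatives added after seeing the data, with 1 GFP1 library per group, which does not show that the tags were alike. The median log2 change of all genes was -0.12 with TMM scaling.

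Signs turned only for genes that passed in no setting. Leaving out single libraries, log2 changes ranged from -0.30 to 0.10 for Parp1, -0.28 to 0.0365 for Parp2, -0.28 to 0.12 for Tnks2, -0.27 to 0.0108 for Xrcc1, -0.43 to 0.0265 for Xrcc5, -0.27 to 0.10 for Xrcc6, -0.42 to 0.00560 for Nadsyn1, -0.16 to 0.12 for Nadk and -0.16 to 0.32 for Kpna1. Without libraries 1 and 2 they were 0.000352 for Parp1, 0.0567 for Parp2, 0.00616 for Xrcc6 and 0.0980 for Nadk. Without libraries 9 and 10 they were 0.0789 for Xrcc1, 0.0361 for Polb, 0.0189 for Xrcc5 and -0.0111 for Kpna1. The GFP3 libraries alone gave 0.0244 for Tnks2 and -0.10 for Kpna1, DESeq2 gave 0.0122 for Nadk, and edgeR gave -0.0272 for Kpna1. The causes were not tested. Depth limits Parp8, at 1 to 31 reads.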
